A study of Mus musculus with 4 samples.

Results

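The renin-angiotensin system was examined through 9 genes fixed as a list, Ren1, Agt, Ace, Agtr1a, Enpep, Mme, Atp6ap2, Mas1 and Nr3c2, out of the 54532 genes counted in each kidney library. The members were taken by their Ensembl identifiers, with symbols from GENCODE M21. The libraries came from kidneys of female C57BL/6J mice, either wild type (WT, 2 libraries) or lacking Zbp1 in every tissue (ZBP1-KO, 2 libraries). All of the animals, controls included, had been injected intraperitoneally with 500 µL of pristane at the age of 8 weeks, and kidneys were collected 8 months later. Pristane is a hydrocarbon oil that brings on a lupus-like disease, and Zbp1 encodes a protein that binds nucleic acids in the left-handed Z form. The knockout was made by deleting a run of exons with CRISPR-Cas9, and the WT mice were purchased. The methods do not say that the genotypes were littermates. The comparison asked how the kidney transcriptome of pristane-injected mice differs without Zbp1, and here how the genes that make, cut and sense angiotensin differ.

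In this system the protease renin, made by juxtaglomerular cells of the afferent arteriole, cuts angiotensinogen into angiotensin I, and angiotensin-converting enzyme turns that peptide into angiotensin II. Angiotensin II acts on the type 1 receptor to constrict vessels and to raise sodium reabsorption, partly through aldosterone and the mineralocorticoid receptor. Membrane peptidases of the tubular brush border break angiotensins down or turn them into peptides that act on other receptors, Mas among them. C57BL/6 mice carry Ren1 without the duplicated renin gene found in some other strains.

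The libraries held 9878776 to 12921925 counts, of which 49.5% to 61.5% fell on mitochondrially encoded genes, leaving 4003417 to 5782924 for all others. Zbp1 had 94 and 125 counts in WT against 18 and 0 in ZBP1-KO, so both ZBP1-KO libraries lay below both WT libraries, as labelled. Its log2 fold change was −3.64 ± 0.89 (SE), yet the edgeR quasi-likelihood test used here did not call it (adjusted p = 0.999). The edgeR exact and likelihood ratio tests did (adjusted p = 0.011 and 0.0075), while DESeq2 and limma-voom did not. A gene not called in the chosen fit may therefore still differ. Defining genes of kidney epithelium were abundant in every library, with Lrp2 of the proximal tubule at 262 to 337 CPM (the count relative to the TMM-scaled library size) and Aqp2 of principal cells at 530 to 1061 CPM. The ZBP1-KO libraries were the least alike of all pairs of libraries, with an r of 0.900 between their log2 CPM values over the 14908 genes tested. The labels give no separate animals for the libraries of a group, so p-values measure only the spread between these libraries.

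Angiotensinogen and renin are the members whose ZBP1-KO libraries lay furthest below WT among those with ample counts, and the promoters of both are shown here because both hold a TATA box just before the annotated start. RefSeq windows (GRCm38.p6) were at hand for 8 of the 9 members. The 250 bases before the start site are given 5′ to 3′ on the strand of the gene, at chr1:133350424-133350673 (plus strand) for Ren1 and chr8:124569707-124569956 (minus strand) for Agt. The GENCODE model of Ren1 begins upstream of the RefSeq start used here. Capitals mark matches, on either strand, to any of 4 motifs, and no matches overlapped in these windows. The TATA box was searched as TATAAA. The box bound by the factor NF-Y was searched as CCAAT. The site of nuclear receptors was searched as AGGTCA. The spaced palindrome bound by STAT factors was searched as TTCNNNGAA.
Ren1: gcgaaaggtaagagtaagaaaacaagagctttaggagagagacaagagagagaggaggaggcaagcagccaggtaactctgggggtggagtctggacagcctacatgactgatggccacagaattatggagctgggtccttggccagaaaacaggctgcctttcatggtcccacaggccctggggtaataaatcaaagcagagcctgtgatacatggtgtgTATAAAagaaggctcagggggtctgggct
Agt: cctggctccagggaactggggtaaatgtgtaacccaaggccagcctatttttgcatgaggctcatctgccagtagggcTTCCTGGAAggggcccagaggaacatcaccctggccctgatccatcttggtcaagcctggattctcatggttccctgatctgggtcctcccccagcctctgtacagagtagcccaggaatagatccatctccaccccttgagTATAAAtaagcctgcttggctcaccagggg
The TATA box match began at position −29 in Ren1 and at −30 in Agt, where the base before the start is −1. The Agt window also held 1 match to the STAT palindrome, at position −172. Of all 32851 windows of 300 bases in the RefSeq table, 13.6% held the TATA box, 37.4% the NF-Y box, 16.3% the nuclear receptor site and 8.30% the STAT palindrome. These shares count a match at any position and on either strand, not only near the start. A match is a description of letters and was not tied to any measurement of binding.

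Renin itself is the enzyme that sets the pace of the cascade. Ren1 (ENSMUSG00000070645, chromosome 1, 133350510 to 133360325, plus strand, GRCm38) had 188 and 186 counts in WT against 146 and 117 in ZBP1-KO. These were 15.1 and 15.9 CPM in WT against 10.8 and 12.6 CPM in ZBP1-KO. The replicates of each genotype lay close together, within 1.05-fold in WT and 1.17-fold in ZBP1-KO, and the genotypes did not overlap. The ZBP1-KO level was 0.752 times that of WT, a log2 fold change of −0.41 ± 0.29 (SE), and the edgeR quasi-likelihood test over all genes did not call it (adjusted p = 0.999). At 2 SE on either side the log2 fold change ran from −0.996 to 0.17. Over the 4 libraries, the genes of at least 10 CPM whose log2 pattern was nearest to that of Ren1 were Snrpe, Rpap2 and Mea1, with Pearson r of 0.996, 0.999 and 0.996. With only 4 libraries such likeness is common, since 227 of 8206 genes reached an r of 0.95.

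Angiotensinogen is the sole precursor of the angiotensins and is made mainly in liver, and in the kidney in the proximal tubule. Agt (ENSMUSG00000031980, chromosome 8, 124556534 to 124569706, minus strand) had 1593 and 1014 counts in WT against 1153 and 728 in ZBP1-KO. In CPM these were 128 and 86.7 in WT against 85.0 and 78.4 in ZBP1-KO. The WT 1 library stood above the other 3, which lay close together, and the genotypes were separated only narrowly. The log2 fold change was −0.39 ± 0.21 (SE, edgeR adjusted p = 0.999), and it was −0.093 without WT 1. The WT 1 library also had the highest sum of the 6 liver markers (51.5 CPM, against 21.98 to 29.8 CPM in the others). Albumin, the defining liver transcript, was at 1.53 and 0.941 CPM in WT against 2.58 and 2.80 CPM in ZBP1-KO. Fat, which also makes angiotensinogen, had a summed marker level of 108 and 137 CPM in WT against 256 and 228 CPM in ZBP1-KO, the opposite order to Agt. Of the 8 tested fat markers 6 were above both WT values in both ZBP1-KO libraries, against 16.0% of all genes. The fat marker Cfd, adipsin, was 1 of the 2 genes that edgeR called over all genes, at 14.4 and 19.8 CPM in WT against 83.7 and 73.2 CPM in ZBP1-KO (adjusted p = 0.00889). The adipokine Adipoq was at 1.13 and 3.34 CPM in WT against 10.6 and 6.03 CPM in ZBP1-KO, while Lep was at 0 throughout. The part of these tissues in the Agt counts was not tested. In a bulk sample, fewer cells of a type and less RNA per cell cannot be told apart.

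**Figure D1:**
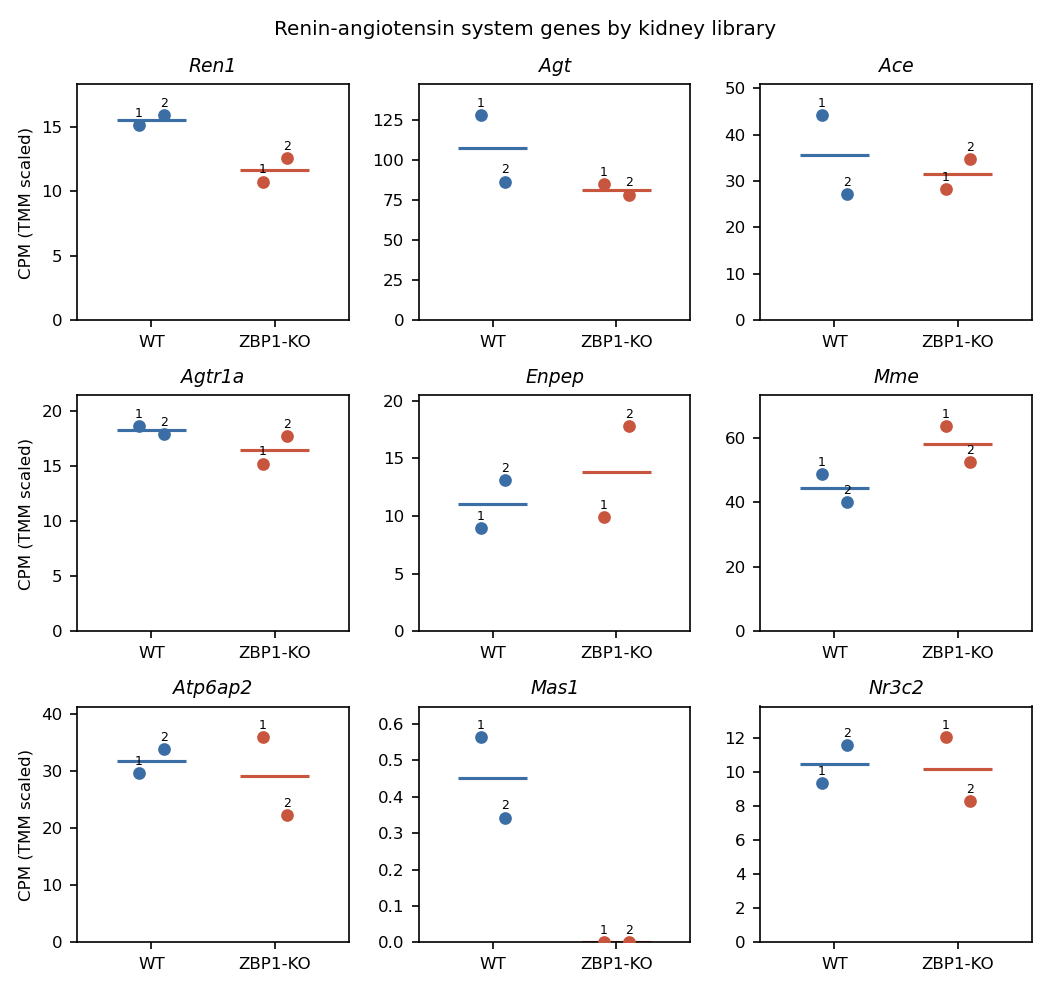
TMM-scaled CPM (vertical axis from 0) of the 9 renin-angiotensin genes in the 2 WT (blue) and 2 ZBP1-KO (red) kidney libraries, with replicate numbers beside the points and a bar at the mean of each group. Ren1, Agt and Agtr1a were below both WT values in both ZBP1-KO libraries, Mme was above, Mas1 was at 0 in ZBP1-KO, and the groups overlapped for the other 4 genes.

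Atp6ap2 encodes the (pro)renin receptor, which is also an accessory subunit of the vacuolar proton pump. Atp6ap2 (ENSMUSG00000031007, chromosome X, 12587801 to 12617049, plus strand) measured 29.6 and 33.8 CPM in WT against 35.9 and 22.3 CPM in ZBP1-KO. The ZBP1-KO libraries held both the highest and the lowest value, 1.61-fold apart. The log2 fold change was −0.12 ± 0.26 (SE), and its sign depended on which ZBP1-KO library was used, with 0.17 from ZBP1-KO 1 alone and −0.51 from ZBP1-KO 2 alone. Neither value was called by edgeR.

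The converting enzyme Ace sits on endothelium and on the proximal tubular brush border, where it makes angiotensin II and degrades bradykinin. Ace (ENSMUSG00000020681, chromosome 11, 105967945 to 105989964, plus strand) measured 44.2 and 27.1 CPM in WT against 28.3 and 34.7 CPM in ZBP1-KO. Again WT 1 was highest, and the groups overlapped. The log2 fold change of −0.18 ± 0.26 (SE) became 0.21 without WT 1, and neither was called. The summed level of 7 endothelial markers overlapped between genotypes, with 299 and 382 CPM in WT against 340 and 314 CPM in ZBP1-KO. An antisense gene, Gm11651, shares 295 bases of exon with Ace and had 0 counts in every library. The methods describe strand-specific libraries, but whether counting used the strand is not given in the sources used here. Reads in those bases therefore cannot be assigned to a strand.

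Mme and Enpep are the brush-border peptidases of the list. Mme encodes neprilysin, which cuts angiotensin I to angiotensin-(1-7) and degrades natriuretic peptides and bradykinin. It is the member whose ZBP1-KO libraries were both above WT. Mme (ENSMUSG00000027820, chromosome 3, 63241537 to 63386030, plus strand) measured 48.7 and 40.0 CPM in WT against 63.6 and 52.4 CPM in ZBP1-KO. Its ZBP1-KO level was 1.31 times that of WT, a log2 fold change of 0.39 ± 0.21 (SE, edgeR adjusted p = 0.999), which was 0.23 without ZBP1-KO 1. Mme also marks podocytes, and the summed level of 6 podocyte markers was 113 CPM in each WT library and 135 and 164 CPM in ZBP1-KO. Of these markers 3 of 6 were above both WT values in both ZBP1-KO libraries, against 16.0% of all genes, none was at 0, and their part in the Mme values was not tested.

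Enpep encodes aminopeptidase A, which removes the first residue of angiotensin II. Enpep (ENSMUSG00000028024, chromosome 3, 129269175 to 129332720, minus strand) measured 8.93 and 13.1 CPM in WT against 9.88 and 17.8 CPM in ZBP1-KO. The library with replicate number 2 was higher in both genotypes, and the groups overlapped. The log2 fold change of 0.32 ± 0.37 (SE) was −0.16 without ZBP1-KO 2 and 0.69 without ZBP1-KO 1, and none of these was called. Some proximal tubule markers were lowest in ZBP1-KO 1 and others were not. Slc5a2, the glucose transporter of the early proximal tubule, was at 45.0 and 33.9 CPM in WT against at 8.48 and 44.0 CPM in ZBP1-KO. Slc5a12, a lactate transporter of the same segment, was at 19.0 and 10.1 CPM in WT against at 4.13 and 16.8 CPM in ZBP1-KO. Slc22a7, an organic anion transporter, was at 212 and 139 CPM in WT against 250.2 and 177 CPM in ZBP1-KO, with ZBP1-KO 1 the highest. Lrp2 was at 262 and 332 CPM in WT against 332 and 337 CPM in ZBP1-KO. All 10 proximal tubule markers, of which Slc34a1 makes up the largest share, summed to 1862 and 2019 CPM in WT against 1456 and 2079 CPM in ZBP1-KO, and the only marker with a library at 0 was Slc7a13. The part of tubular segments in the Enpep values was not tested.

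The receptors of the list are Agtr1a, the main type 1 receptor for angiotensin II in mice, Mas1, the receptor for angiotensin-(1-7), and Nr3c2, the mineralocorticoid receptor. Agtr1a (ENSMUSG00000049115, chromosome 13, 30336441 to 30382867, plus strand) was the steadiest member, at 18.6 and 17.9 CPM in WT against 15.2 and 17.7 CPM in ZBP1-KO. Its highest library was 1.22-fold above its lowest. The ZBP1-KO values were below WT by a narrow margin, with a log2 fold change of −0.15 ± 0.26 (SE, edgeR adjusted p = 0.999). At 2 SE on either side the log2 fold change ran from −0.68 to 0.37.

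Mas1 (ENSMUSG00000068037, chromosome 17, 12841079 to 12868143, minus strand) had 7 and 4 counts in WT against 0 in both ZBP1-KO libraries. It was the only member below the low-count filter and was not tested. A count of 0 allows up to 3 counts, which is 0.221 to 0.323 CPM per library in ZBP1-KO, against 0.563 and 0.342 CPM in WT. The observed mean of WT was 1.66 times this limit, averaged over the ZBP1-KO libraries. Counting error of the 7 and 4 counts in WT is not allowed for, so this is no lower bound on the difference. When genes with at least 1 count were all tested, edgeR gave Mas1 an adjusted p of 0.962.

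Nr3c2 (ENSMUSG00000031618, chromosome 8, 76899442 to 77245012, plus strand) measured 9.33 and 11.5 CPM in WT against 12.0 and 8.30 CPM in ZBP1-KO. As for Atp6ap2, ZBP1-KO 1 was the highest library and ZBP1-KO 2 the lowest. The log2 fold change was −0.033 ± 0.35 (SE), and it was 0.20 without ZBP1-KO 2 and −0.34 without ZBP1-KO 1. The noncoding gene Gm10649 shares 247 bases of exon with Nr3c2 on the other strand and had 0 counts in every library.

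Counted over the list, 8 of the 9 members passed the filter and edgeR called 0 of these at its adjusted threshold of 0.05. None of the 8 had an unadjusted p under 0.05. The edgeR exact test, the edgeR likelihood ratio test, DESeq2 and limma-voom each called 0 as well. Over all 14908 genes tested, the background was 0.0134% at the adjusted threshold and 3.88% at the unadjusted one. The groups did not overlap for 4 of the 8, 1 with ZBP1-KO above and 3 with ZBP1-KO below. Over all genes they did not overlap for 32.3%, with 16.0% above and 16.3% below, and with groups of 2 such counts are easily reached. The log2 fold change was above 0 for 2 of the 8 members, against 49.4% of all genes. Its median was −0.13, against −0.0061 over all genes, and members ran from −0.41 to 0.39. With 2 libraries a group, the smallest two-sided p of an exact permutation test is 0.333.

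Levels were set in order per length, as CPM per kilobase of annotated exon. Agt was highest, at 50.01 ± 11.98 CPM per kb (SD over the 4 libraries), 4.31 times the next member, and its lowest library was above every library of the others. There followed Atp6ap2 (11.6 ± 2.29 CPM per kb), Ren1 (8.21 ± 1.42), Ace (6.35 ± 1.48), Agtr1a (6.22 ± 0.530), Mme (4.43 ± 0.845) and Enpep (2.64 ± 0.848). Each of these overlapped its neighbours in range over the 4 libraries. Within every library Atp6ap2 was above Ren1, Ren1 above Ace and Mme above Enpep, whereas Ace and Agtr1a, and Agtr1a and Mme, changed places between libraries. Nr3c2 (1.59 ± 0.275 CPM per kb) lay below all of them without overlap, and Mas1 (0.0864 ± 0.106) was lowest by 18.4-fold. The order of the middle members depended on the length used. Per kilobase of coding sequence Mme took rank 3, at 22.7 ± 4.34 CPM per kb, since its annotated exons span 11542 bases of which 2250 are coding.

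**Figure D2:**
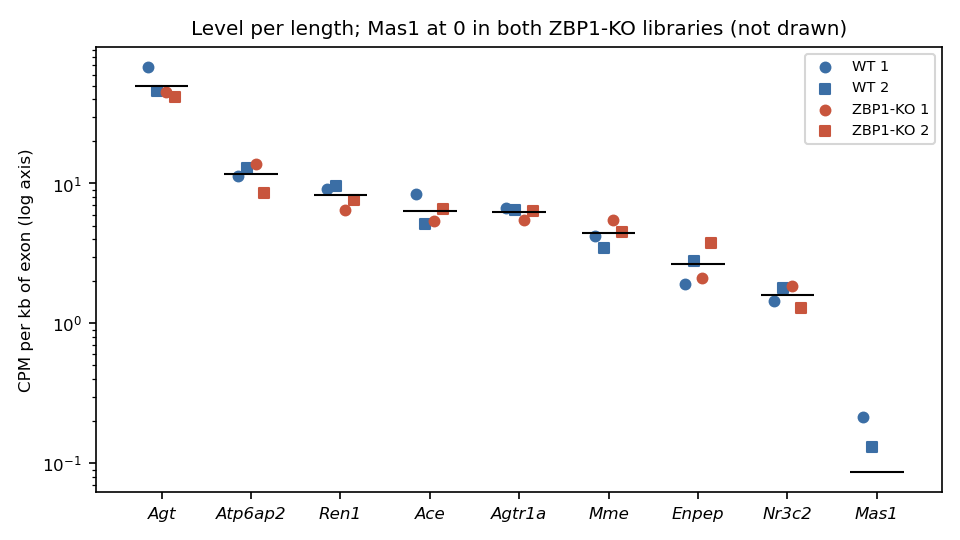
CPM per kilobase of exon (log axis) of the members in order of their mean (black bar, over all 4 libraries), with WT in blue, ZBP1-KO in red, circles for replicate 1 and squares for replicate 2. Agt stands above all others, Mas1 lies lowest, and the members from Atp6ap2 to Enpep overlap their neighbours.

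To see whether the rest of the pathway differed, 26 genes of the renin-angiotensin pathway were read together, the members other than Nr3c2 among them. Of these, 19 passed the filter and 0 were called by edgeR in either direction. At an unadjusted p under 0.05, 1 was higher and 0 were lower, against 1.91% and 1.97% of all genes. Log2 fold changes were above 0 for 7 and below 0 for 12, with a median of −0.12. Chymase (Cma1), cathepsin G (Ctsg) and mast cell carboxypeptidase (Cpa3), which act on angiotensins in mast cells and neutrophils, had 0 counts in every library, as did the receptors Agtr2 and Mrgprd. Agtr1b, the other type 1 receptor of mice, had 10 counts in ZBP1-KO 1 and 0 elsewhere.

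The pathway gene under the unadjusted threshold was Thop1, thimet oligopeptidase, which cuts angiotensin I to angiotensin-(1-7) as neprilysin does. It measured 11.7 and 13.2 CPM in WT against 17.8 and 21.5 CPM in ZBP1-KO, without overlap. Its log2 fold change of 0.66 ± 0.28 (SE) had an edgeR adjusted p of 0.999 and stayed between 0.51 and 0.78 with any 1 library left out.

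Besides Klk1, Agt and Mme, the most abundant pathway genes were Ctsa, Rnpep and Anpep, and each overlapped between genotypes. Cathepsin A (Ctsa) measured 163 and 147 CPM in WT against 137 and 167 CPM in ZBP1-KO. Rnpep, aminopeptidase B, measured 35.3 and 52.6 CPM in WT against 53.7 and 51.7 CPM in ZBP1-KO. Anpep, aminopeptidase N, measured 40.1 and 23.6 CPM in WT against 33.8 and 40.0 CPM in ZBP1-KO. In each of these 3 the difference between the WT libraries was as wide as, or wider than, that between the group means, or the ZBP1-KO values spanned the WT range.

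Ratios of counts within a library do not depend on the scaling between libraries, and they were formed after the values were seen. The ratio of Ace to Mme was 0.907 and 0.677 in WT against 0.446 and 0.663 in ZBP1-KO, where WT 2 and ZBP1-KO 2 were nearly equal. The ratio of Agt to Ren1, 8.47 and 5.45 in WT against 7.90 and 6.22 in ZBP1-KO, overlapped.

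**Figure D3:**
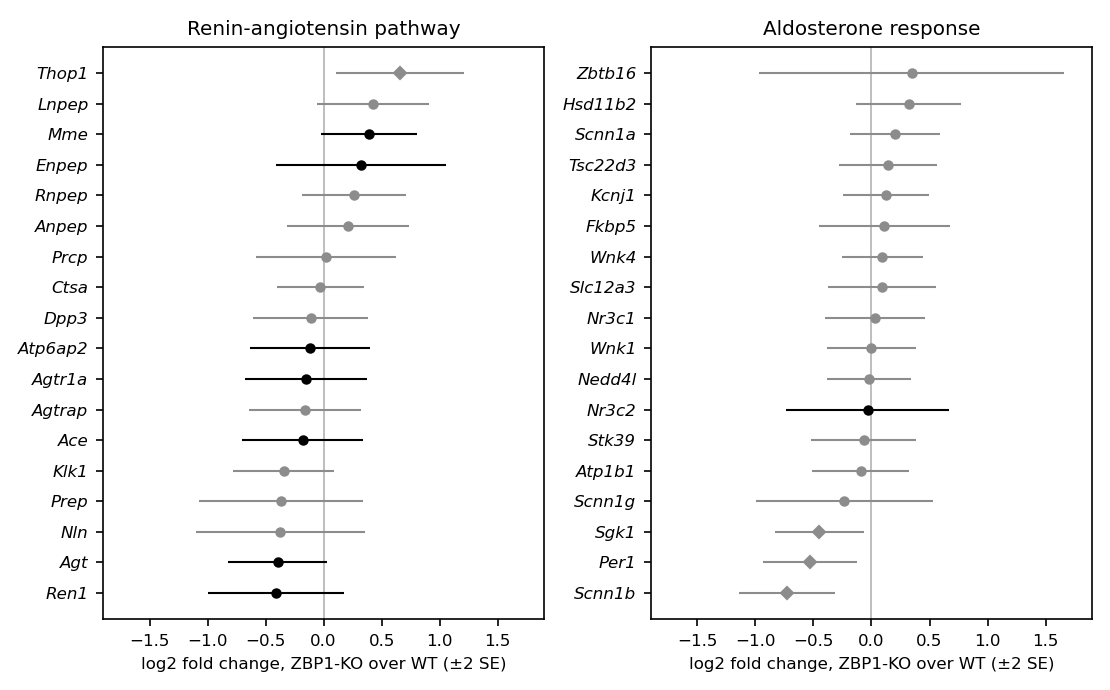
Log2 fold change of ZBP1-KO over WT (horizontal axis) with 2 SE on either side for tested genes of the renin-angiotensin pathway (left) and of the aldosterone response (right), in order of the change; members are black, other genes grey, and diamonds mark an unadjusted p under 0.05. The diamonds are Thop1 on the left and Scnn1b, Per1 and Sgk1 on the right, and no gene shown was called after adjustment.

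Kinins share Ace and neprilysin with the angiotensins, and 7 of 8 genes of that branch passed the filter. edgeR called 0, and the unadjusted threshold of 0.05 was passed by 0 higher and 2 lower genes, against 1.91% and 1.97% of all genes. The larger kininogen signal, Kng2, was level at 447 and 449 CPM in WT against 470 and 448 CPM in ZBP1-KO. Tissue kallikrein (Klk1), which frees kinins, was at 661 and 946 CPM in WT against 555 and 710 CPM in ZBP1-KO, overlapping. Klk1 belongs to a cluster of near-identical kallikrein genes and Kng2 has a close copy in Kng1, so the counts of both are uncertain under counting of uniquely mapped pairs. Cpn1, a carboxypeptidase N subunit that trims kinins, measured 31.4 and 48.7 CPM in WT against 17.8 and 29.7 CPM in ZBP1-KO, with a log2 fold change of −0.76 ± 0.29 (SE, edgeR adjusted p = 0.999). Xpnpep2, an aminopeptidase that cuts bradykinin, had 46 and 23 counts in WT against 5 and 3 in ZBP1-KO, a log2 fold change of −2.99 ± 1.11 (SE, edgeR adjusted p = 0.999). Both ZBP1-KO libraries were below both WT libraries for each of these genes.

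Genes of the renin cell and its control were read beside Ren1. Of 18, 17 passed the filter, edgeR called 0, and the unadjusted threshold of 0.05 was passed by 0 higher genes and 1 lower gene, against 1.91% and 1.97% of all genes. That gene was Pde1c, a phosphodiesterase of cyclic nucleotides, at 6.27 and 11.4 CPM in WT against 3.61 and 4.31 CPM in ZBP1-KO, with a log2 fold change of −1.16 ± 0.48 (SE, edgeR adjusted p = 0.999). Other genes of the list, picked out after their values were seen, differed in how they were ordered among the libraries. Ebf1, a transcription factor, was at 14.8 and 17.96 CPM in WT against 12.5 and 14.4 CPM in ZBP1-KO, and had, like Pde1c, the order of Ren1 (WT 2, WT 1, ZBP1-KO 2, ZBP1-KO 1, from high to low). How many genes share that order was not counted, and both ZBP1-KO libraries lay below both WT libraries for 16.3% of all genes. The renin cell markers Gja5 and Akr1b7 overlapped between genotypes. Gja5, connexin 40, was at 7.0 and 7.44 CPM in WT against 4.87 and 10.1 CPM in ZBP1-KO, and Akr1b7 had 26 and 8 counts in WT against 35 and 0 in ZBP1-KO. Of the abundant genes, Adcy6, an adenylyl cyclase, measured 95.1 and 114 CPM in WT against 119 and 94.2 CPM in ZBP1-KO. Vdr, the vitamin D receptor, measured 53.1 and 45.6 CPM in WT against 39.7 and 56.2 CPM in ZBP1-KO. Both overlapped. Nos1, which marks the macula densa, had 2 and 3 counts in WT against 0 in ZBP1-KO, below the filter.

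Downstream of Nr3c2, the 19 genes of the aldosterone response were all tested. edgeR called 0, and the unadjusted threshold of 0.05 was passed by 0 higher and 3 lower genes, namely Scnn1b, Sgk1 and Per1, against 1.91% and 1.97% of all genes. The median log2 fold change was −0.0012, with 9 genes above 0 and 10 below. Scnn1b encodes the β subunit of the epithelial sodium channel, through which the collecting duct takes up sodium. It measured 44.2 and 41.3 CPM in WT against 26.1 and 25.5 CPM in ZBP1-KO. Replicates agreed closely and the genotypes stood well apart, with a log2 fold change of −0.73 ± 0.21 (SE) and an adjusted p of 0.999 in edgeR. With any 1 library left out it stayed between −0.78 and −0.69, and its adjusted p in edgeR, DESeq2 or limma-voom was at least 0.385 under every alternative tried.

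The other subunits of the channel were ordered otherwise. Scnn1a was at 75.7 and 59.7 CPM in WT against 78.4 and 77.3 CPM in ZBP1-KO, and Scnn1g at 18.3 and 8.30 CPM in WT against 12.1 and 10.6 CPM in ZBP1-KO. Within a library the ratio of Scnn1b to Scnn1a counts was 0.583 and 0.692 in WT against 0.333 and 0.330 in ZBP1-KO. Both ZBP1-KO values of Scnn1a were just above both WT values, which widens this ratio. Scnn1b was chosen for the ratio with its values known. Of the other principal cell markers, Aqp2 and Aqp3 were lower in the same libraries. Aqp2 measured 903 and 1061 CPM in WT against 730 and 530 CPM in ZBP1-KO, and Aqp3 measured 71.4 and 74.4 CPM in WT against 59.1 and 37.9 CPM in ZBP1-KO. Of the 5 tested markers, Scnn1b and Scnn1g included, 3 were below both WT values in both ZBP1-KO libraries, against 16.3% of all genes. These 3 were Aqp2, Aqp3 and Scnn1b itself, so the count is not independent of Scnn1b. Scnn1g overlapped, as did Fxyd4, at 167 and 170 CPM in WT against 171 and 158 CPM in ZBP1-KO. All 6 markers summed to 1204 and 1356 CPM in WT against 998 and 763 CPM in ZBP1-KO, a sum that is mostly Aqp2. The part of principal cells in the Scnn1b values was not tested.

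Sgk1, a kinase that keeps the sodium channel at the membrane, measured 121 and 94.9 CPM in WT against 80.0 and 78.1 CPM in ZBP1-KO. Its log2 fold change was −0.45 ± 0.19 (SE, edgeR adjusted p = 0.999), and −0.27 without WT 1. Per1, a clock gene that aldosterone induces, measured 57.8 and 64.7 CPM in WT against 38.2 and 46.8 CPM in ZBP1-KO, with a log2 fold change of −0.53 ± 0.20 (SE, edgeR adjusted p = 0.999). Both genes also respond within a short time to stress. The 12 immediate-early genes, which rise within minutes of a stimulus, summed to 619 and 232 CPM in WT against 135 and 142 CPM in ZBP1-KO, and 11 of them were below both WT values in both ZBP1-KO libraries, against 16.3% of all genes. Their part in the values of Sgk1 and Per1 was not tested. Other glucocorticoid and mineralocorticoid targets overlapped, Fkbp5 at 38.3 and 20.5 CPM in WT against 30.2 and 33.4 CPM in ZBP1-KO, and Tsc22d3 at 51.6 and 70.0 CPM in WT against 61.4 and 72.9 CPM in ZBP1-KO.

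Hsd11b2, which shields the mineralocorticoid receptor from glucocorticoids, measured 149 and 93.1 CPM in WT against 145 and 158 CPM in ZBP1-KO. The thiazide-sensitive transporter Slc12a3 measured 495 and 823 CPM in WT against 652 and 749 CPM in ZBP1-KO. Its kinase Wnk4 measured 192 and 201 CPM in WT against 203 and 216 CPM in ZBP1-KO, a log2 fold change of 0.094 ± 0.17 (SE). Differences between genotypes in these genes were smaller than those between the libraries of a group, except for Wnk4, where the ZBP1-KO values were just above both WT values.

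**Figure D4:**
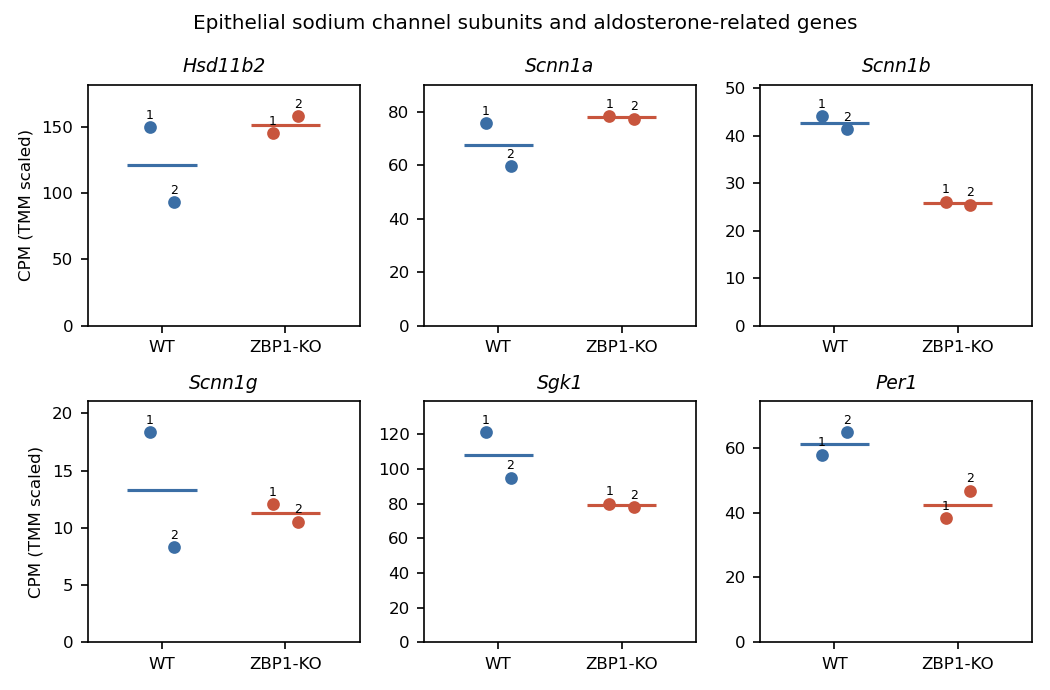
TMM-scaled CPM (vertical axis from 0) of the sodium channel subunits Scnn1a, Scnn1b and Scnn1g and of Hsd11b2, Sgk1 and Per1 in WT (blue) and ZBP1-KO (red) libraries, with replicate numbers and a bar at each mean. Scnn1b, Sgk1 and Per1 are lower in both ZBP1-KO libraries than in both WT libraries, Scnn1a is just higher, and Scnn1g and Hsd11b2 overlap.

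The summed level of the 9 members, 303 and 246 CPM in WT against 261 and 244 CPM in ZBP1-KO, overlapped between genotypes and is mostly Agt. T cell markers summed to 14.8 and 9.41 CPM in WT against 26.8 and 20.4 CPM in ZBP1-KO, with 3 of 7 tested markers above both WT values, against 16.0% of all genes, and none at 0. The sum of the macrophage markers, 376 and 257 CPM in WT against 362 and 356 CPM in ZBP1-KO, overlapped. Of these 8 markers 3 were above both WT values in both ZBP1-KO libraries, against 16.0% of all genes. The sum of the B and plasma cell markers was highest in WT 1 (808 CPM, against 218 to 420 CPM). This sum is mostly Igkc, at 654 and 153 CPM in WT against 174 and 336 CPM in ZBP1-KO. Of the 5 tested B and plasma cell markers, 1 was above both WT values and 1 below, against 16.0% and 16.3% of all genes. Of the mural markers, Acta2 measured 50.3 and 51.3 CPM in WT against 34.9 and 70.4 CPM in ZBP1-KO. Renin cells are a form of mural cell, and the summed mural level was 239 and 299 CPM in WT against 263 and 296 CPM in ZBP1-KO. Its 9 markers differed in direction, with log2 fold changes of 0.59 for Rgs5 and −0.30 for Pdgfrb, and the part of mural cells in the Ren1 values was not tested.

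**Figure D5:**
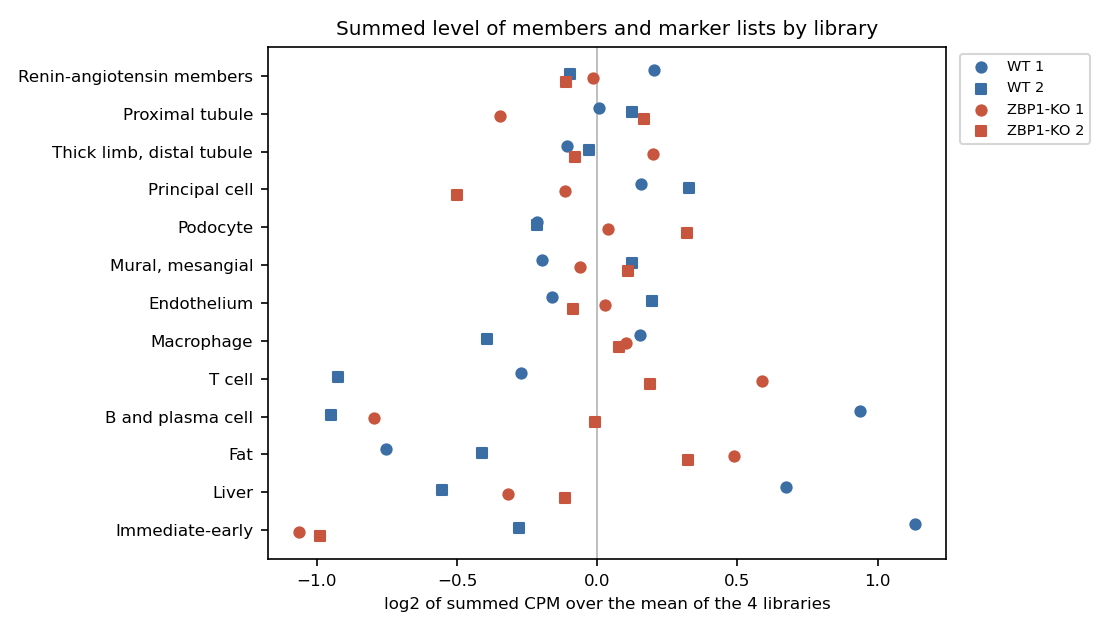
Log2 of the summed CPM of each gene list over its mean in the 4 libraries (horizontal axis), with WT in blue, ZBP1-KO in red, circles for replicate 1 and squares for replicate 2. Fat and T cell markers are higher and immediate-early genes lower in both ZBP1-KO libraries, whereas the sum of the renin-angiotensin members overlaps between genotypes.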

How the data were processed

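Per the labels and methods, the authors enriched polyadenylated kidney RNA, prepared TruSeq libraries, trimmed reads with Trimmomatic, aligned them to mm10 with HISAT2 and counted uniquely mapped pairs per gene with featureCounts. The methods describe the libraries as strand-specific. Versions, annotation release and the strand setting of the counting are not given in the sources used here. Each of the 4 deposited files gives raw counts of a library by Ensembl gene ID, without normalization. Duplicates were not removed by molecular identifiers, so limits cover counting error only.

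Of 54532 IDs, 54495 matched GENCODE M21 (GRCm38, the same assembly as mm10), which gave symbols, positions and exon lengths. Genes passing filterByExpr (minimum count 10, minimum total 15; 14908 genes) were scaled by TMM and fitted with genotype alone in edgeR 4.0.16 (glmQLFit and glmQLFTest, two-sided, R 4.3.3), with Benjamini-Hochberg adjustment over all genes tested and a threshold of 0.05. The study named the negative binomial test of edgeR, which was run as the exact test among the alternatives. CPM values are TMM scaled. Fold changes are ZBP1-KO over WT with a prior count of 0.125, and SE is the absolute log2 fold change over the square root of F. DESeq2 1.42.0 and limma 3.58.1 were further alternatives, as were other scalings, filters, a prior count of 2, exclusion of mitochondrially encoded genes, the replicate number as a block and each library left out. Of the pathway, kinin, aldosterone and renin control lists, all genes with an unadjusted p under 0.05 were named. The other genes named were some of the most abundant ones and further genes picked with the values known. The members and lists were chosen with earlier results of these data known. Some genes of these lists are counted in the totals but not reported here by name.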

Additional observations from a re-analysis of the deposited data

How the results depend on the processing

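The count of called members was 0 under all 15 alternatives tried, as were those of the pathway and aldosterone response lists. None of the 120 member values under alternatives passed the threshold, and with all 4 libraries none changed sign. The median log2 fold change of the members, −0.13, ran from −0.22 to −0.11 with 1 library left out, the lower end without ZBP1-KO 2. With 1 library left out, Ace ran from −0.50 to 0.21, Enpep from −0.16 to 0.69, Atp6ap2 from −0.51 to 0.17 and Nr3c2 from −0.34 to 0.20, so their signs rest on single libraries. Ren1 ran from −0.53 to −0.31, Agt from −0.65 to −0.093, Agtr1a from −0.27 to −0.052 and Mme from 0.23 to 0.53. At an unadjusted p under 0.05 edgeR gave Agt without WT 2 and with all genes of at least 1 count, and Mme without ZBP1-KO 2. In fits with 1 library left in a group, that library is assumed to vary like the other group. By coding length 5 of the 9 members kept their place in the order of levels, which follows from the lengths.

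Over all genes, 2 were called in the chosen fit, 41 with all genes of at least 1 count, 14 with the exact test, 26 with the likelihood ratio test, 9 with DESeq2, 8 with limma-voom, 4 without mitochondrially encoded genes and 0 to 37 with 1 library left out; the cause was not tested. With the replicate block, 11 genes were called, members stayed at 0 and their median was −0.15. Libraries that share a replicate number did not deviate together (r = 0.0040 over tested genes), and the number was not taken as a pairing.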

Other observations

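Aldosterone is made in the adrenal gland, and adrenal markers were used to see whether adrenal tissue had come along with the kidneys. Cyp11b1, Cyp11b2 and Nr5a1 had 0 counts in every library. Cyp11a1, which starts steroid synthesis, had 24 counts in WT 1 and 0 in the other libraries, and Star was at 4.50 and 4.45 CPM in WT against 4.06 and 10.1 CPM in ZBP1-KO.

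Angiotensinogen and several peptidases differ between the sexes in mouse kidney, so sex markers were read as well. Xist was at 321 to 512 CPM in every library, and of the Y-linked genes Eif2s3y, Uty and Kdm5d had 0 counts throughout while Ddx3y had 6 counts in WT 1 alone. Kap, an androgen-responsive kidney gene, overlapped between genotypes, at 8821 and 5565 CPM in WT against 9402 and 7028 CPM in ZBP1-KO.

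Tubular injury markers overlapped between genotypes, summing to 696 and 619 CPM in WT against 694 and 579 CPM in ZBP1-KO. This sum is mostly Spp1, at 568 and 511 CPM in WT against 556 and 442.5 CPM in ZBP1-KO. Lcn2 was at 34.3 and 12.6 CPM in WT against 38.1 and 17.6 CPM in ZBP1-KO. Of 7 markers 4 were tested, and Havcr1, kidney injury molecule 1, had at most 5 counts in any library.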
